A study of Drosophila melanogaster with 10 samples.

Results

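Transcript levels in heads were compared between 3 chromosome substitution lines that carry 2 of their 3 large chromosomes from the strain Z30 (MZZ, ZMZ and ZZM, called the 2-Z30 lines below) and 3 lines that carry 1 (MMZ, MZM and ZMM, the 1-Z30 lines). These are 6 of the 10 arrays of the series, and each was placed in its group by its label. In a line's name the letters stand, in order, for the X, the second and the third chromosome, with Z for a chromosome from Z30 and M for a chromosome from the strain Fr. MZZ therefore has its X from Fr and both large autosomes from Z30, ZMZ the second from Fr, and ZZM the third from Fr. MMZ, MZM and ZMM are the mirror images, with the third, the second or the X chromosome from Z30 and the rest from Fr. Both strains are Drosophila melanogaster, and every RNA sample came from the heads of nonvirgin females of 3 to 5 days, 100 to 200 heads a sample. The other 4 arrays of the series, 2 of Fr and 2 of Z30, took no part in the test between the groups. They are set beside the lines as a description, and enter only the test of departure from the parental difference given last. Each line had 1 array, so a line and its array cannot be told apart, and the 3 lines of a group are 3 different genotypes rather than repeats of 1. The labels give no origin for the fourth chromosome, the smallest, or for the mitochondria, and they name no mating, rearing or extraction batch.

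The series' title names a behavioural differentiation between Z and M types. As background, strains of Drosophila melanogaster from Zimbabwe and cosmopolitan strains differ in mate choice, and chromosome substitution is the classical way to ask how much of such a difference each chromosome carries. A chromosome from another strain brings its own promoters and enhancers, which act on the genes beside them, and its own regulatory proteins, which act on genes on any chromosome. Counting Z30 chromosomes asks a different question from following 1 of them: whether a transcript goes up or down with how much of the genome is Z30, whichever chromosome that is.

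The layout of the 6 lines sets what this comparison can show. Each of the 3 chromosomes comes from Z30 in 2 of the 3 lines of the first group and in 1 of the 3 lines of the second. If the effects of the chromosomes add up, the difference between the group means is the sum of the 3 origin effects divided by 3. A gene that follows 1 chromosome alone has both of its levels in both groups, so its groups overlap. Within the 6 lines the same difference also holds the interaction of all 3 chromosomes, and the sum and the interaction cannot be told apart.

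One array stood apart and is taken into account throughout. MZM had a median signal of 165 over all probe sets, against 191.9 to 204.1 on the other 5 lines, and its median rank correlation with the other lines was 0.905, against 0.947 to 0.948. It lay over 1 log2 unit from the median of the 6 lines on 1714 probe sets, against 589 to 738 for the others. Across 9775 genes its deviations from a gene's mean had a Spearman rho of -0.28 with gene length, where those of the other lines had 0.16 to 0.3. The neuronal markers elav and brp were at or under 38.9, the floor set on low signals, on MZM alone, and the summed signal of elav, nSyb and brp was 986 on MZM against 2478 to 3311 elsewhere. Markers of the eye (trp and Arr2), of glia (repo and nrv2) and of the head fat body (Yp1, Yp2, Yp3, fit and Lsp2) were above the floor on every line. Some markers of tissues a head should lack were under the floor on all 6 lines: dj (testis), alphaTry (midgut), fln and TpnC4 (flight muscle). Mst87F (90.3 to 355) and Mst98Ca (59.0 to 106) of the testis and Cp36 of the ovary (142 to 560) were above it on all 6. So were Jon65Aiii of the midgut (155 to 404) and Act88F of flight muscle (102 to 293). betaTub85D of the testis, osk of the ovary and Jon99Ci of the midgut were under it on 2, 4 and 4 lines. osk was above it only on MZM (53.7) and ZMM (45.2), and read 6.9 to 8.0 in the 2-Z30 lines. For the antenna, lush was under the floor on every line and Obp19d read 13410 to 23358. Summed testis markers ranged from 228 to 456 in the 1-Z30 lines and from 245 to 407 in the 2-Z30 lines, ovary markers from 157 to 413 and from 198 to 567, and midgut markers from 194 to 470 and from 236 to 304.

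No transcript passed the test. In limma's moderated test over the 6 lines, 0 of 12604 probe sets (0.0%) had an adjusted p under 0.05 in either direction, and the lowest adjusted p was 0.327, shared by 7 probe sets. An unadjusted p under 0.05 was found for 670 probe sets (5.32%). Without MZM, 0 of 12511 (0.0%) passed, 797 (6.37%) had an unadjusted p under 0.05 and the lowest adjusted p was 0.313. With the origins of the 3 chromosomes as terms of the model, which takes the effects of single chromosomes out of the spread, 0 of 12604 (0.0%) passed, 800 (6.35%) had an unadjusted p under 0.05 and the lowest adjusted p was 0.741.

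The precision for a single probe set can be read from its interval, which is not adjusted for the number of probe sets tested. Differences well beyond the widths below also missed the adjusted threshold, such as Vinc at 2.22 ± 0.29 log2 units. Signals raised to the floor have no spread of their own, which narrows the intervals of dim probe sets. The median half-width of a probe set's 95% confidence interval was 0.73 log2 units, and for 6132 probe sets (48.7%) the whole interval lay within 1 log2 unit of 0 in both directions. Without MZM the half-width was 0.69 and 6883 intervals (55.0%) lay within that range. Among the estimates themselves, 5% lay under -0.62 and 5% over 0.81 log2 units. The median standard deviation between lines was 0.38 in the 1-Z30 lines, 0.27 in the 2-Z30 lines and 0.2 in the 1-Z30 lines without MZM. Estimates over 1 log2 unit were found for 334 probe sets higher and 145 lower in the 2-Z30 lines, so 69.7% of them were on the higher side. This split moved with the treatment of the arrays: it was 266 against 185 (59.0% higher) without MZM and 250 against 181 (58.0%) after quantile normalization.

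The overlap of the groups was counted as well, which needs no model. Groups that do not overlap, where all 3 lines of a group lay above all 3 of the other, were found for 1461 of 12604 probe sets (11.6%), 747 higher (5.93%) and 714 lower (5.66%) in the 2-Z30 lines. Differing by over 1 log2 unit as well were 177 higher (1.4%) and 82 lower (0.651%). With 1 probe set per gene, 540 of 9822 genes were higher without overlap (5.5%) and 621 lower (6.32%), and these shares are the background against which the gene groups below are read. With MZM left out, 2602 of 12511 probe sets (20.8%) did not overlap, 1283 higher (10.3%) and 1319 lower (10.5%), and of 9745 genes 972 were higher (9.97%) and 1083 lower (11.1%). For a single gene, an exact permutation test of 3 lines against 3 cannot give a p under 0.1. Where the groups do not differ, 3 lines against 3 are likewise expected to lie apart, in either direction, in a share of 0.1. For 3 lines against 2 that share is larger by construction, so the rise in counts without MZM is no measure of what MZM hid.

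The genes described next are those whose groups did not overlap and whose p was smallest, 12 in each direction, and those with the largest differences. They were chosen on these values, none passed the test, and their values are a description. On the higher side the largest difference among them belonged to Vinc, which encodes vinculin, a protein that links cell adhesion sites to the actin skeleton. Its signal was 117 in MMZ, 108 in MZM and 122 in ZMM, and 514 in MZZ, 712 in ZMZ and 421 in ZZM. The 1-Z30 lines were nearly level, and the lowest 2-Z30 line stood far above them. The means were 116 ± 6.96 and 549 ± 149 (SD, n = 3 each), a difference of 2.22 ± 0.29 log2 units (SE, 95% interval 1.53 to 2.9, adjusted p = 0.327). It was 2.17 without MZM. The parent arrays read 103 and 344 for Fr and 134 and 90.3 for Z30, all below the lowest 2-Z30 line.

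kek6, a transmembrane protein with leucine-rich repeats of the Kekkon family, read 78.5, 65.2 and 76.6 in MMZ, MZM and ZMM, and 227, 321 and 317 in MZZ, ZMZ and ZZM. Its groups did not overlap, and the difference was 1.96 ± 0.3 log2 units (adjusted p = 0.391). side-V, of the sidestep family of immunoglobulin proteins, read 113, 55.6 and 78.1 against 324, 376 and 228, a difference of 1.94 ± 0.38 (adjusted p = 0.549). Its other probe sets did not bear the size out, with differences of 0.81 ± 0.53 and 0.09 ± 0.14. pb, the homeotic gene proboscipedia that shapes the mouthparts, was under the floor on all 3 of the 1-Z30 lines (21.3 to 36.2) and read 115, 88.5 and 82.2 in MZZ, ZMZ and ZZM. That is at least 2.42-fold higher (adjusted p = 0.391), and both Z30 parent arrays (136 and 87.0) were above both Fr arrays (33.6 and 48.9). wor, the Snail family zinc finger gene worniu of neural stem cells, read 46.5, 24.2 and 35.3 against 83.3, 112 and 96.1, a difference of 1.23 ± 0.21 (adjusted p = 0.448).

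Gr61a is a taste receptor of the sugar receptor family. It read 112, 97.2 and 100 in MZZ, ZMZ and ZZM, and 40.2, 23.4 and 26.2 in MMZ, MZM and ZMM, where 2 of the 3 were under the floor. The difference was 1.39 ± 0.19 log2 units (adjusted p = 0.327). fidipidine was under the floor on all 1-Z30 lines (18.4 to 23.9) and read 99.0, 112 and 92.6 in the 2-Z30 lines, at least 2.59-fold higher (adjusted p = 0.327). The parents were alike for it and sat at the level of the 2-Z30 lines, with 102 and 131 for Fr and 94.5 and 128 for Z30. CG13024, an uncharacterised gene, read 58.9, 52.9 and 45.6 against 218, 233 and 201, with a difference of 2.05 ± 0.26 (adjusted p = 0.327). The rest of this set were CG34377, CG17343, CG14949, CG9672 and Dnaaf6, which takes its name from the assembly of axonemal dyneins, with differences of 1.09 to 1.64. A second probe set of CG34377 went the other way (-0.35 ± 0.29). The larger but more scattered CG13722 and CG13801 differed by 2.1 ± 0.49 and 1.9 ± 0.58 log2 units (adjusted p = 0.656 and 0.812).

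On the lower side, CG5707 was the brightest gene of its set. It read 3217 in MMZ, 2963 in MZM and 2472 in ZMM, and 904 in MZZ, 774 in ZMZ and 1133 in ZZM. The groups were far apart and each was narrow: 2880 ± 379 against 937 ± 182 (SD, n = 3 each), a difference of -1.63 ± 0.19 log2 units (95% interval -2.09 to -1.17, adjusted p = 0.327). It was -1.61 without MZM. All 4 parent arrays, 3303 and 2206 for Fr and 1591 and 1658 for Z30, were above every 2-Z30 line.

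Other genes on the lower side were near the floor in the 2-Z30 lines, and their folds are lower bounds. gas read 331, 124 and 220 in MMZ, MZM and ZMM and 31.9, 31.7 and 31.1 in MZZ, ZMZ and ZZM, at least 5.35-fold lower (adjusted p = 0.391). CG14662 read 169, 251 and 149 against 28.9, 34.0 and 33.5, at least 4.75-fold lower (adjusted p = 0.327), and CG4496 read 170, 102 and 171 against 15.7, 30.7 and 24.1, at least 3.7-fold lower (adjusted p = 0.391). In all 3 genes every 2-Z30 line was under the floor and every 1-Z30 line above it. CG10064, CG12766 and CG15140 had the same form at lower signals, at least 2.35-fold, 2.34-fold and 1.89-fold lower. E(spl)m2-BFM, a Bearded family gene of the Enhancer of split complex, which responds to Notch signalling, read 221, 120 and 121 against 39.0, 53.9 and 45.8, a difference of -1.69 ± 0.33 (adjusted p = 0.549). Cyp9b2, a cytochrome P450, read 1651, 2196 and 1992 against 694, 1098 and 998, a difference of -1.08 ± 0.22 (adjusted p = 0.556), and its second probe set gave -0.41 ± 0.29. CG9452, CG13965 and CG3045 completed the set with differences of -1.04, -1.41 and -1.05. Among the largest differences without a small p were CG10814, at least 3.6-fold lower (adjusted p = 0.829), and CG4269, with a difference of -1.85 ± 0.45 log2 units (adjusted p = 0.678).

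**Figure D1:**
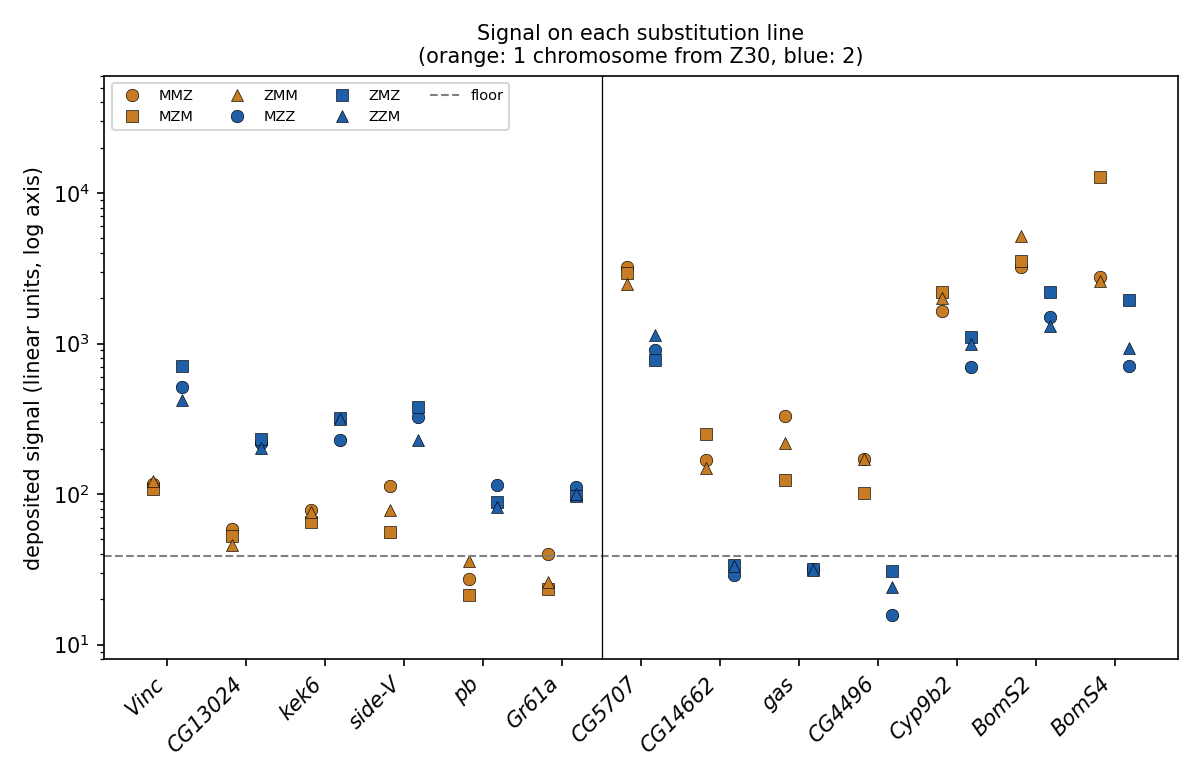
Deposited signal (linear units, log axis) of 13 genes whose groups do not overlap, 1 point for each of the 6 lines, with the 1-Z30 lines in orange, the 2-Z30 lines in blue and the floor of 38.9 as a dashed line. Vinc sits at 108 to 122 in orange and 421 to 712 in blue, and gas, CG14662 and CG4496 lie under the floor in every 2-Z30 line.

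Most of these genes were dim. Of the 12 higher genes with the smallest p, 9 had a signal under 200 on all 6 lines, and of the 12 lower genes, 6 did, while 2 of the lower genes, CG5707 and Cyp9b2, averaged over 1000. Groups that do not overlap keep their direction when a line is left out, so the direction without MZM was fixed by the choice of these genes. Without MZM the limma differences were 1.09 to 2.17 and -2.8 to -0.93 log2 units. Their adjusted p was 0.33 to 0.567 and 0.313 to 0.582. The parental difference had the same sign as the difference between the lines in 7 of the 12 higher genes and in 4 of the 12 lower genes.

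Genes whose levels on the lines went with the origin of 1 chromosome took the form the layout sets, high and low lines in both groups. They were named here after their values were seen. Lsp2, a storage protein of the hexamerin family made by the fat body, read 482 in MMZ, 23980 in MZM and 28018 in ZMM, and 696 in MZZ, 728 in ZMZ and 27646 in ZZM. The low lines are those with the third chromosome from Z30, 1 in the first group and 2 in the second, so the difference of -1.51 log2 units has a standard error of 2.0. The parents did not show so wide a split. Fr read 1913 and 8602 and Z30 1160 and 2204, all between the low and the high lines. CG11426, of the lipid phosphatase family, had the same order with 495, 6771 and 8086 against 496, 614 and 6486. Hsc70-2, a member of the heat shock protein family, read 11.3, 685 and 781 against 8.9, 13.5 and 760. Cyp6a17, a cytochrome P450, read 7.8, 340 and 32.4 in MMZ, MZM and ZMM and 2140, 4.2 and 1676 in MZZ, ZMZ and ZZM, high wherever the second chromosome is from Z30. Its difference of 2.69 ± 1.66 (adjusted p = 0.829) was the largest estimate of all genes tested and its interval ran from -1.26 to 6.64. smash, a protein of epithelial junctions, read 2414, 396 and 819 against 2563, 2290 and 119, a difference of -0.06 ± 1.26, while its 4 other probe sets gave 0.2 to 1.58. For CG11426, Hsc70-2, Cyp6a17 and smash the parents differed in the lines' direction. Z30 minus Fr was -3.36, -3.48, 5.21 and 4.43 log2 units.

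Muscle genes were the list with the highest share of groups that did not overlap. Of 17 contractile protein genes measured, 0 were called, 7 were higher without overlap (41.2%, against 5.5% of all genes) and 1 was lower, and 16 of 17 differences were positive. The median difference was 0.38 log2 units, against 0.0 over all genes. Without MZM, 8 were higher and 1 lower (47.1% higher, against 9.97% of all genes) and the median was 0.27. Mlc1, a myosin light chain, read 8661, 4069 and 6946 in MMZ, MZM and ZMM and 10954, 16931 and 12075 in MZZ, ZMZ and ZZM, a difference of 1.06 ± 0.31 (adjusted p = 0.812). Prm, paramyosin of the thick filament, read 5988, 3390 and 3752 against 6788, 8002 and 7976 (0.84 ± 0.23, adjusted p = 0.812), and Act88F, the actin of flight muscle, 198, 102 and 147 against 275, 257 and 293 (0.93 ± 0.33, adjusted p = 0.829). In each of these the lowest line was MZM. Groups that are apart stay apart by construction when a line is left out, but the size can change: for Mlc1 the difference was 0.75 without MZM. Mf (myofilin), Mlc2 (the regulatory myosin light chain), bt (projectin) and Msp300 (a nesprin) were the other higher genes. The difference of bt was 1.01 ± 0.58, and its second probe set gave 0.24 ± 0.43. TpnC73F, a troponin C, was the lower gene, with 74.8, 75 and 60.5 against 8.8, 55.3 and 43.4. The flight muscle genes fln and TpnC4 were under the floor on every line, and the summed signal of the 3 flight muscle markers, nearly all of it Act88F, was 116 to 219 in the 1-Z30 and 276 to 314 in the 2-Z30 lines. The part of flight muscle in these values was not tested. The parents did not run the same way for the abundant genes: Z30 minus Fr was -0.45 for Mlc1, -1.23 for Prm and -0.59 for Mf. A larger share of muscle in a sample and more transcript per muscle cell cannot be told apart here, and this holds for every cell type below.

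Cuticle protein genes, which build the exoskeleton, leaned the same way more weakly. Of 85 measured, 0 were called, 9 were higher without overlap (10.6%, against 5.5% of all genes) and 6 lower (7.06%, against 6.32%). At an unadjusted limma p under 0.05, 10 were higher and 1 lower (11.8% and 1.18%, against 2.46% and 3.02% of all genes). Cpr92F, of the family with the chitin-binding Rebers and Riddiford sequence, read 200, 186 and 127 in MMZ, MZM and ZMM and 428, 600 and 304 in MZZ, ZMZ and ZZM, a difference of 1.35 ± 0.35 (adjusted p = 0.771). Cpr76Bd read 35, 77 and 33.1 against 81.0, 356 and 77.3, a difference of 1.42 ± 0.65 in which ZMZ stood far above the rest and the groups were barely apart. The median over the list was 0.11, and 0.13 without MZM.

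Neuronal genes had positive differences that were smaller without MZM. Of 16 genes of synaptic vesicle release, 0 were called, 4 were higher without overlap (25.0%, against 5.5% of all genes) and 0 lower. Without MZM 4 were higher (25.0%, against 9.97%). The median difference of 0.53 log2 units was 0.11 without MZM. unc-13, which primes vesicles for release, read 1319, 175 and 1626 in MMZ, MZM and ZMM and 2375, 1767 and 1815 in MZZ, ZMZ and ZZM, a difference of 1.45 ± 0.8 that was 0.43 without MZM. nSyb, the vesicle SNARE synaptobrevin, read 2287, 939 and 2130 against 2673, 2959 and 2371 (0.68 ± 0.34, and 0.27 without MZM). All 16 voltage-gated channel genes had a positive difference, against 4921 of 9822 genes, with a median of 0.45. Without MZM 10 of 16 did, against 4788 of 9745 genes, with a median of 0.11. Clock gene differences turned on MZM as well: 8 of 11 differences were positive with MZM and 0 of 11 without it, and none of the 11 had groups apart in the 6 lines. Pdp1, a transcription factor of the clock's second loop, read 534, 96.0 and 811 against 815, 675 and 440. Across genes the difference between the groups went with gene length at a Spearman rho of 0.28, and 0.07 without MZM. The part of transcript length in the neuronal values on MZM was not tested.

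Subunits of oxidative phosphorylation, the machinery of ATP production in mitochondria, showed the reverse dependence on MZM. Of 61 measured, 3 were higher without overlap (4.92%, against 5.5% of all genes) and 0 lower with all 6 lines. Without MZM 18 were higher (29.5%, against 9.97% of all genes) and 0 lower. The median was 0.06 log2 units with MZM and 0.14 without it, and single differences ran from -1.11 (ND-20L) to 0.68 (ND-51L1). ND-13A, of complex I, read 4735, 4739 and 4266 in MMZ, MZM and ZMM and 5558, 6106 and 5550 in MZZ, ZMZ and ZZM (0.33 ± 0.13, adjusted p = 0.829). COX5B, of cytochrome oxidase, read 17793, 16860 and 16022 against 19356, 22037 and 18036 (0.23 ± 0.15, adjusted p = 0.829). Genes among the 18 that were apart only without MZM have MZM as the highest 1-Z30 line by construction. ND-ACP was 1 of them, with 5516, 9483 and 6741 against 8158, 8360 and 8629. None was called in either fit.

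Among genes of protein synthesis and breakdown, mitochondrial ribosomal proteins had 1 higher and 6 lower without overlap of 64 measured (1.56% and 9.38%, against 5.5% and 6.32% of all genes). Without MZM they had 5 and 7 (7.81% and 10.9%, against 9.97% and 11.1%). Their median of -0.15 was -0.06 without MZM. The proteasome had 0 higher and 3 lower of 36 (8.33% lower), and 2 and 4 without MZM, with medians of -0.16 and -0.03. Cytosolic ribosomal proteins had 0 higher and 1 lower of 35 (2.86%), and 1 and 3 without MZM. The lower one, RpS29, read 1607, 2149 and 1940 against 1473, 1291 and 1421, a difference of -0.44 ± 0.16.

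**Figure D2:**
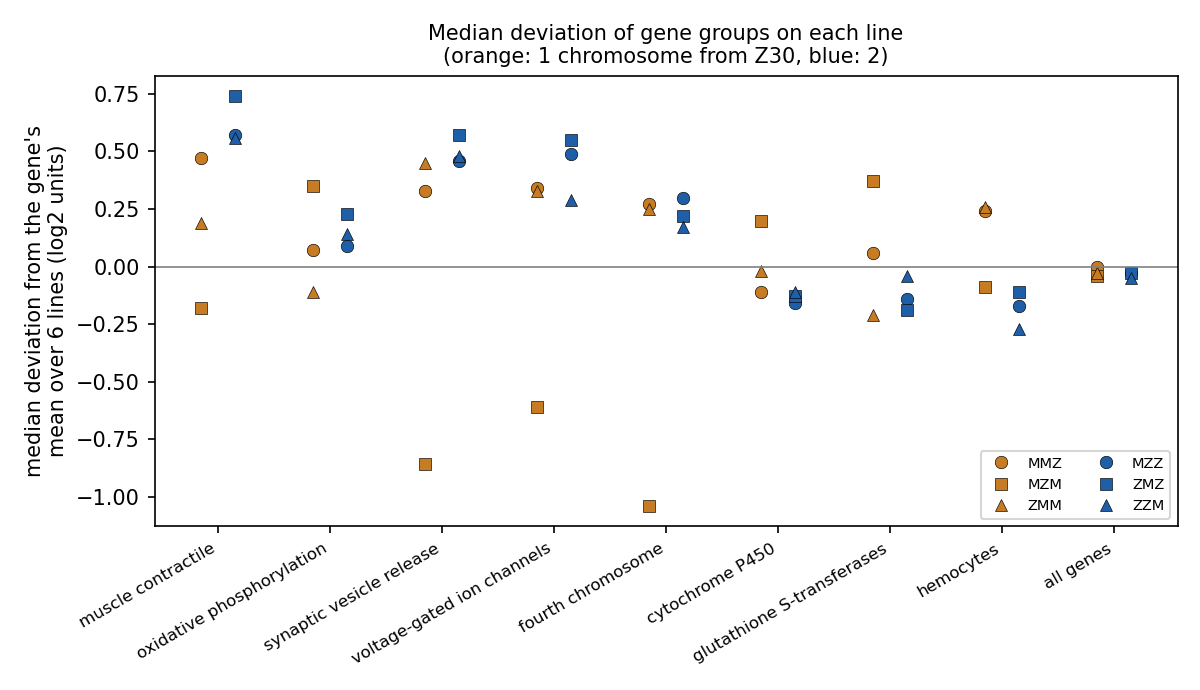
Median deviation of each gene group on each line from the genes' means over the 6 lines (log2 units), with the 1-Z30 lines in orange and the 2-Z30 lines in blue. MZM lies at -0.86 for synaptic vesicle genes, -1.04 for genes of the fourth chromosome and 0.35 for oxidative phosphorylation, while the muscle genes of the 2-Z30 lines lie at 0.56 to 0.74, above all 3 of the 1-Z30 lines.

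Among detoxification genes, the P450 and glutathione S-transferase genes whose groups did not overlap were lower in the 2-Z30 lines when all 6 lines were used, but not all of them when MZM was left out. Cytochrome P450 genes, whose enzymes oxidise hormones, lipids and toxins, had 0 higher and 9 lower without overlap of 75 measured (0.0% and 12%, against 5.5% and 6.32% of all genes). At an unadjusted p under 0.05, 2 were higher and 8 lower, and 0 were called. Cyp4ac1 read 957, 1286 and 1215 in MMZ, MZM and ZMM and 263, 850 and 420 in MZZ, ZMZ and ZZM (-1.33 ± 0.42, adjusted p = 0.812). Cyp6a23 read 616, 780 and 567 against 214, 510 and 202 (-1.21 ± 0.39, adjusted p = 0.826), and Cyp6a14 was on the higher side only in MZZ (247) and ZZM (601), against 14.3 to 26.4 on the other lines. Cyp9b2, described above, belongs to this group. Without MZM the P450 genes stood at 5 higher and 10 lower (6.85% and 13.7%, against 9.97% and 11.1%), and MZM was the highest line for Cyp4ac1, Cyp6a23 and Cyp9b2.

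Glutathione S-transferases, which conjugate reactive compounds, had 0 higher and 5 lower of 34 (14.7% lower, against 6.32% of all genes). Without MZM they had 2 and 5 (5.88% and 14.7%, against 9.97% and 11.1%). GstE1 read 1776, 2564 and 1793 in MMZ, MZM and ZMM and 462, 1513 and 785 in MZZ, ZMZ and ZZM (-1.3 ± 0.42, adjusted p = 0.826), and GstO1 225, 340 and 253 against 79.1, 18.7 and 207 (-1.64 ± 0.61, adjusted p = 0.829). Without MZM the differences of GstE1 and GstO1 were -1.12 and -1.47, and their groups stay apart by construction. UDP-glycosyltransferases had 0 higher and 1 lower of 25 (4.0%, under the background), and 2 and 3 without MZM. Several of the P450 and GST genes are close relatives in clusters, and whether their probe sets read each other's transcripts was not tested.

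Blood cell genes whose groups did not overlap were lower in the 2-Z30 lines too. Of 17 hemocyte genes, 0 were higher and 3 lower without overlap (17.6%, against 6.32% of all genes). Without MZM 0 were higher and 7 lower (41.2%, against 11.1% of all genes). The medians were -0.28 with MZM and -0.48 without it. PPO2, a prophenoloxidase of crystal cells, read 2551, 1912 and 4893 in MMZ, MZM and ZMM and 1278, 1709 and 1335 in MZZ, ZMZ and ZZM (-1.01 ± 0.34, adjusted p = 0.829). NimC1, a phagocytosis receptor of plasmatocytes, read 474, 698 and 621 against 462, 399 and 306 (-0.62 ± 0.25, adjusted p = 0.829), and lz, the transcription factor that makes crystal cells, 138, 180 and 210 against 123, 120 and 123. PPO1 joined them without MZM, which at 590 had lain among the 2-Z30 values of 486, 970 and 368, below MMZ (1355) and ZMM (2222). Of the 6 antimicrobial peptide genes measured none had groups apart, and the medians with and without MZM differed in sign (-0.26 and 0.06).

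Bomanins are short secreted peptides induced by the Toll pathway. They were looked at as a group after BomS4 had appeared among the largest lower differences, so the count is a description of genes chosen on their values. Of 8 measured, 0 were called, all 8 differences were negative and 4 had groups apart (11.8% of all genes did). The median was -0.92, or -0.8 without MZM. BomS4 read 2769, 12768 and 2590 in MMZ, MZM and ZMM and 709, 1946 and 939 in MZZ, ZMZ and ZZM, a difference of -2.05 ± 0.68 that was -1.3 without MZM (adjusted p = 0.829 and 0.677). BomS2 read 3212, 3523 and 5203 against 1500, 2197 and 1302, with every 1-Z30 line above every 2-Z30 line and MZM in the middle of its group (-1.26 ± 0.27, adjusted p = 0.579). BomT2 read 12070, 11925 and 13612 against 5592, 9949 and 3587 (-1.1 ± 0.35, adjusted p = 0.818), and BomS5 25608, 26715 and 24963 against 9882, 22423 and 14999 (-0.79 ± 0.29, adjusted p = 0.829). Their sequences are alike, and whether the probe sets read each other's transcripts was not tested. BomBc2 had the smallest difference, -0.15, and it was 0.16 without MZM. Of 9 peptidoglycan recognition genes, which lie upstream of the Toll and Imd pathways, 0 had groups apart, with a median difference of -0.2.

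Chemosensory genes, of interest in heads of strains that differ in mating, were spread in both directions. Of 68 odorant and gustatory receptor genes, 3 were higher and 3 lower without overlap (4.41% each, under the background of 5.5% and 6.32%). Or47b, an antennal odorant receptor that answers to fatty acid esters from flies, read 26.4, 57.3 and 35.7 in MMZ, MZM and ZMM and 143, 84.7 and 183 in MZZ, ZMZ and ZZM, a difference of 1.56 ± 0.35 (adjusted p = 0.656). Gr43a, a fructose receptor, read 127, 111 and 169 against 90.2, 25.1 and 26.7 (-1.37 ± 0.4), and Gr68a, a receptor linked to male courtship, 88.7, 97.4 and 93.5 against 34.2, 38.6 and 70.2 (-0.98 ± 0.29). All are dim. Odorant-binding proteins had 1 higher and 2 lower of 30 (3.33% and 6.67%, against 5.5% and 6.32% of all genes). The higher one, Obp56a, read 196, 185 and 316 against 351, 561 and 802 (1.26 ± 0.38, adjusted p = 0.812).

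Cuticular hydrocarbons serve flies as contact pheromones, and the genes of their synthesis gave 0 higher and 2 lower of 12 (16.7% lower, against 6.32% of all genes). Fad2, a desaturase of female diene synthesis, read 273, 205 and 213 in MMZ, MZM and ZMM and 171, 192 and 96.0 in MZZ, ZMZ and ZZM (-0.64 ± 0.36, adjusted p = 0.829). Cyt-b5, the electron carrier cytochrome b5, read 4784, 6264 and 4521 against 4433, 3700 and 4061 (-0.34 ± 0.17, adjusted p = 0.829). In the fat body list, 0 of 9 genes had groups apart. The yolk protein genes Yp1, Yp2 and Yp3, the brightest of the head fat body, overlapped fully, with Yp1 at 52247 to 59814 in the 1-Z30 lines and 56906 to 58817 in the 2-Z30 lines.

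**Figure D3:**
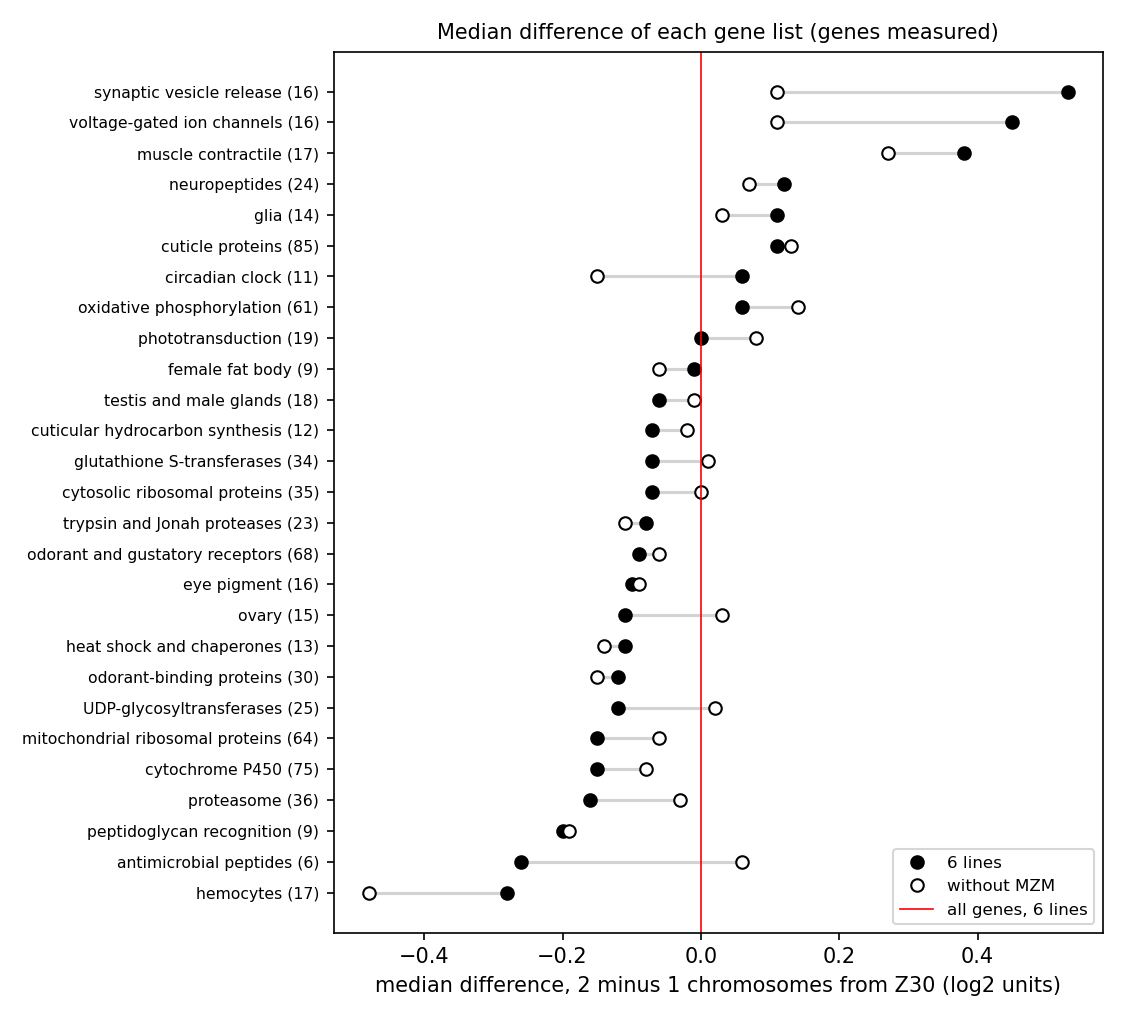
Median difference between the 2-Z30 and the 1-Z30 lines (log2 units) of the 27 gene lists with 6 or more genes measured, the number in brackets, for all 6 lines (filled) and without MZM (open); the red line is the median of all genes. Muscle genes stay on the higher side (0.38 and 0.27) and hemocyte genes on the lower side (-0.28 and -0.48), while the synaptic and ion channel lists lie at 0.11 without MZM.

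By position, the share of genes whose groups did not overlap was lowest on the X chromosome (9.49% of 1623 genes) and ranged from 10.4% on 3L to 14.9% on 2R among the large autosomal arms. On 2R, 177 of 1970 genes were lower (8.98%) and 117 higher (5.94%). The fourth chromosome, whose origin the labels do not give, had 10 of 57 genes higher (17.5%) and 0 lower, against 5.5% and 6.32% of all genes. Its median difference of 0.44 log2 units was 0.02 without MZM, and the median deviation of its genes on MZM was -1.04, against 0.17 to 0.3 on the other 5 lines. Of the 10 genes higher without overlap, all but Gat had MZM as their lowest line. MED26, a subunit of the Mediator complex, read 952, 177 and 1074 in MMZ, MZM and ZMM and 1186, 1162 and 1114 in MZZ, ZMZ and ZZM. Its difference was 1.03 ± 0.66, but its second probe set gave 0.07 ± 0.41. Gat, the GABA transporter, read 1693, 1767 and 1563 against 2378, 2278 and 2136, and its limma difference of 0.44 ± 0.13 (adjusted p = 0.812) was 0.48 without MZM. ey, the eye selector gene eyeless, read 892, 735 and 878 against 1016, 975 and 1218 (0.36 ± 0.17, adjusted p = 0.829).

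The difference between the lines was then set beside the difference between the strains. Over 12604 probe sets the Spearman correlation of the 2 differences was 0.07, or 0.06 without MZM. Against the parental difference on Fr 1 and Z30 1 alone it was 0.18, and against that on Fr 2 and Z30 2 alone it was -0.05. Fr 1 and Z30 1 differ from the other 8 arrays in their range, with highest signals of 26039 and 28894.6, against 46285 to 59814.5 elsewhere. Probe sets are not independent replicates and these values are descriptions. Of the 747 probe sets higher without overlap in the 2-Z30 lines, 414 (55.4%) were also higher in Z30 than in Fr, against 51.9% of all probe sets, and of the 714 lower ones 394 (55.2%) were also lower in Z30, against 45.7%. The 4 group means, from Fr over the 1-Z30 and the 2-Z30 lines to Z30, stood in ascending order for 475 probe sets. They stood in descending order for 465 (7.46% together). Among the probe sets whose groups did not overlap, 32 (2.19%) had either order. Such an order needs both line means to lie between the parent means, which is harder to meet where the lines lie apart. The 2 shares are therefore not comparable.

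Over all probe sets the slope of the lines' difference on the parental one, through the origin, was 0.07. A stricter set of parental differences was also examined. For 301 probe sets Z30 and Fr differed by over 1 log2 unit in the same direction in both array pairs. Of these, 190 (63.1%) had the same sign in the lines, and the same slope was 0.12, or 0.14 without MZM. The Spearman correlation over the 301 was 0.3. The groups of lines did not overlap for 14 of the 301 in the parental direction and for 6 in the opposite one. Together these are a smaller share than the 11.6% of all 12604 probe sets whose groups did not overlap. Conversely, in 296 probe sets whose groups did not overlap every 2-Z30 line was above all 4 parent arrays, and in 239 every 2-Z30 line was below them. All 6 lines lay outside the range of the parents for 414 of all 12604 probe sets.

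**Figure D4:**
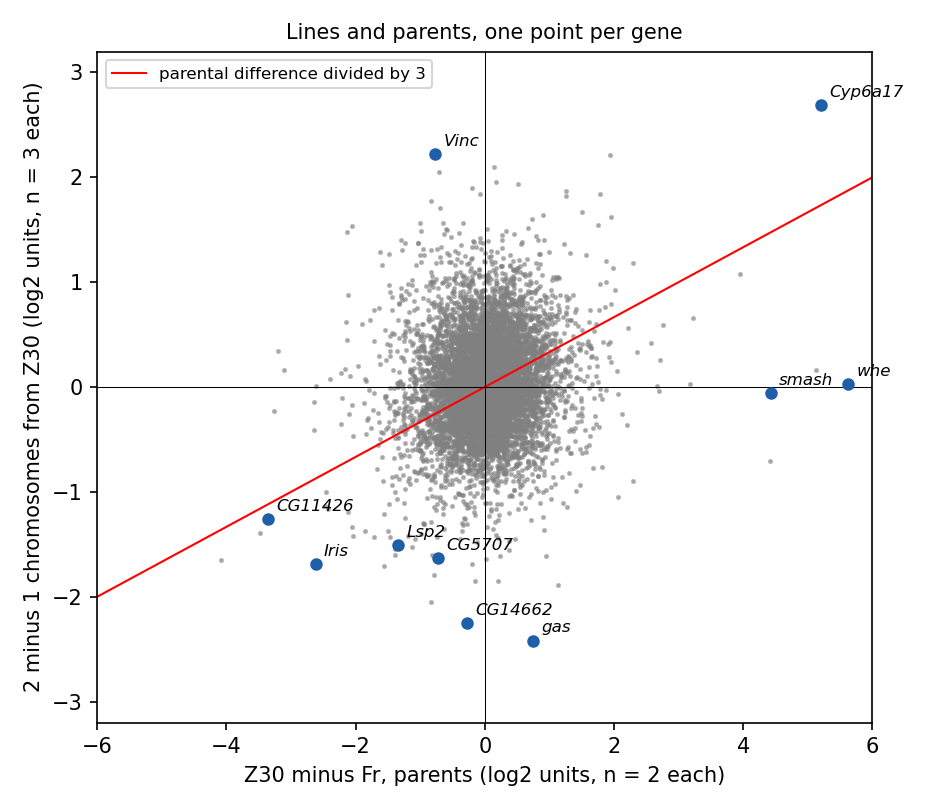
Difference between the 2-Z30 and the 1-Z30 lines (log2 units, n = 3 each) against the difference between Z30 and Fr (log2 units, n = 2 each), 1 point per gene for 9822 genes; the red line is the parental difference divided by 3. whe lies at 5.62 and 0.03, Cyp6a17 at 5.21 and 2.69, and Vinc and CG5707 lie far from the line on opposite sides.

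The departure of each gene from the parental difference divided by 3 was tested with all 10 arrays. It was called for 0 of 13266 probe sets (0.0%), with 499 (3.76%) at an unadjusted p under 0.05 and a lowest adjusted p of 0.179. With the pair Fr 1 and Z30 1 against the other 8 arrays as a block, 0 (0.0%) were called, 729 (5.5%) had an unadjusted p under 0.05 and the lowest adjusted p was 0.106. The 5 genes with the smallest p had an adjusted p of 0.664 each and were CG34377, CG5707, naz, CG32277 and whe. whe, on the X chromosome, read 70.8 and 62.0 on the Fr arrays and 3087 and 3446 on the Z30 arrays, but 53.0, 30.8 and 30.2 in MMZ, MZM and ZMM and 26.7, 40.5 and 54.3 in MZZ, ZMZ and ZZM. None of the 6 lines was near the Z30 level, including ZMM, ZMZ and ZZM, whose X chromosome is labelled as that of Z30, and the adjusted p of its departure was 0.382 with the block. Whether the X of these 3 lines matches that of the Z30 flies on the parent arrays at this gene was not tested. naz read 26.7, 51.3 and 11.7 against 105, 111 and 85.5, a difference of 1.23 ± 0.23, and its second probe set gave 0.72 ± 0.39. CG32277 read 106, 90.8 and 90.1 against 25.1, 62.2 and 26.0. In naz and CG32277, as in CG5707, the groups of lines were apart while the difference did not pass limma's test between them (adjusted p = 0.497 for naz and 0.678 for CG32277).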

How the data were processed

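Groups follow the chromosome letters in the labels. The authors deposited signal intensity, not log transformed, with a value for each probe set on each array. How they computed it is not given in the sources used here, and no reading of background was used, so precision is limited by the number of arrays. The deposited intensity had been scaled, since its 2% trimmed mean was 500.1 on all 10 arrays.

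Intensity under the pooled 20th percentile (38.9) was raised to that floor before log2, which understates differences of dim genes. Of 14010 probe sets, 44 controls and 1362 at the floor on all 6 lines were not tested. A gene at the floor throughout a group has only a bound, given as at least a fold. Differences (2-Z30 minus 1-Z30) were computed in R 4.3.3 by limma 3.58.1 (lmFit, then eBayes with a trend of variance on mean; Benjamini-Hochberg adjustment over the 12604 probe sets tested; threshold 0.05; 4 residual degrees of freedom), then without MZM (3 degrees) and with chromosome origins as terms (2 degrees). The script was tested on simulated data. Values after ± are standard errors of log2 differences unless SD is given. Separate cultures are not stated, so p-values measure only the spread between these arrays.

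Symbols came from the platform annotation, brought to Release 6 by Entrez identifier (12394 updated). Of 13966 probe sets, 12443 had 1 gene, 327 several and 1196 none. A gene is given by its probe set with the highest mean over the 6 lines. Named are the 12 genes with the smallest p in each direction among those without overlap, the 6 largest such differences in each direction, the 2 largest differences of each gene list and the 5 smallest p of the departure test. Other genes, among them the Bomanins, genes of the fourth chromosome and further list members, were chosen after their values were seen. The comparison, its members and the gene lists were chosen with earlier results of these data known, and false matches in the lists were corrected after values were seen. Alternatives were other floors, scalings, filters, variance models and model terms, and each line left out.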

Additional observations from a re-analysis of the deposited data

Results flagged for a closer look

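By Dixon's test at the 95% level, which flags about 1 in 20 groups of values by chance, 3 array measures had a line far from the other 5. The median signal was 165.0 on MZM, against 191.9 to 204.1 on the others. The median rank correlation with the other lines was 0.905 for MZM, against 0.947 to 0.948. The ratio of the 3′ to the 5′ probe sets for the control transcript Gapdh was 2.11 on MMZ, against 2.43 to 2.61 on the others, where MZM had 2.61. The corresponding actin ratio of MMZ was 1.29, against 1.33 to 1.95. For the third control, eIF-4a, MMZ was not low, with 2.54 against 2.13 to 2.58.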

How the results depend on the processing

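The test between the groups called 0 probe sets under each of 15 alternatives, with 461 to 856 at an unadjusted p under 0.05 and a lowest adjusted p of 0.119. Over all 27 settings tried, including those added after seeing the data, 0 were called, 410 to 2496 had an unadjusted p under 0.05 and the lowest adjusted p was 0.056. The departure test called 0 under its 4 alternatives, with 282 to 729 at an unadjusted p under 0.05. Counts of groups that do not overlap ranged from 1200 to 1459 higher and from 1190 to 1473 lower when each line was left out, and 3 lines against 2 overlap less often by construction. List medians depended on MZM: without it the synaptic list went from 0.53 to 0.11 and the channels from 0.45 to 0.11, and the sign turned for the clock (0.06 to -0.15), antimicrobial peptides (-0.26 to 0.06), ovary (-0.11 to 0.03), UDP-glycosyltransferases (-0.12 to 0.02) and glutathione S-transferases (-0.07 to 0.01). Of 105 named genes 11 reversed their sign under some setting, none of them called. With each line left out in turn, se ranged from -0.05 (without MMZ) to 1.26, Pdp1 from -0.08 (without MZM) to 1.46, cwo from -0.12 (without MZM) to 1.02, PGRP-SC2 from -1.45 to 0.1 (without MZM), TotE from -0.77 to 0.4 (without MZZ) and Hsp68 from -0.92 to 0.2 (without MZZ). whe ranged from -0.12 (without ZZM) to 0.18, and was -0.04 without MZM or ZMM. smash ranged from -0.82 to 1.39 (without ZZM), and was 0.64 without MMZ. BomBc2 ranged from -0.46 to 0.16 (without MZM), and was 0.11 without ZMZ. With the floor at the 40th percentile CG6660 (0.2), TotE (0.21) and Hsp68 (0.08) reversed, with the floor at the 10th percentile TotB (0.17), and with no floor and log2(signal + 50) TotB (0.14) and smash (0.04). The cause was not tested. No paired analysis was possible because the replicate numbers of the lines name different genotypes and pair no samples. With 1 array a line, dim genes near the floor and MZM limit what these arrays can show.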
